A study of Vigna unguiculata with 30 samples.

Results

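The 70 genes described here rose stepwise up the canopy of cowpea (Vigna unguiculata), a grain legume: each was higher in middle than in bottom leaves and higher again in top than in middle leaves. They were chosen by measured values. Gene models on chromosomes 1 to 11 were kept when their level averaged 10 to under 1000 CPM (the count of a gene divided by all counts of its library, times 1000000) over 30 libraries, and when the group mean plus 0.5 CPM at least doubled (ratio of 2 or more) at both steps and at both stages. Of 31948 gene models, 12173 lay in this window of level and 70 passed; 60 genes of the window met the mirrored rule and fell at both steps. The position values that chose the genes are given as a description, with no test.

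The plants were of the genotype IT97K-499-35, grown in the ground of a greenhouse with supplemental light, and polyA RNA was sequenced from leaf punches. The groups were top, middle and bottom leaves at the R3 growth stage (week 6.5 after planting) and top, middle and bottom leaves at the R1 growth stage (week 5.5), with 5 libraries in each of the 6 groups. Replicates are labelled biological, but no label says that each came from its own plant, so the p-values below measure the spread between these samples. The title of the series names native promoters in this species, for which it matters where and when each gene is active.

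A canopy carries leaves of different age and light at once. New leaves unfold near the top in full light, and older leaves below them are increasingly shaded and give up nutrients as they age, so that age and light cannot be told apart by position. A transcript that climbs through bottom, middle and top leaves follows leaf position. Whether its promoter would direct expression to upper leaves was not tested. None of the gene identifiers could be tied to a gene name or a product (0 of 31948 matched), so the genes are given by identifier, without the annotation suffix that the files add, and no function, marker of a cell type or sequence is given for them. Leaf punches hold several cell types: more cells of a type and more RNA per cell cannot be told apart in such samples.

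Counts per library totalled 10.5 to 17.4 M (M, mega), with a median of 12.7 M, so that 10 CPM corresponds to over 100 counts in every library. All 70 genes passed the filter on low counts. One library stood apart for these genes: top R3 replicate 2 was the highest top R3 library for 64 of the 70 (91.4%), against 30.8% of the 12173 genes of the window. It was the lowest for 1 of the 70 (1.43%), against 41.1% of the window, so it was often an extreme outside these genes too. The rule, which asks for a high top R3 mean, used this library. Without it, 39 of the 70 still met the rule, the median top over middle ratio at R3 was 2.19, against 2.82 with it, and 69 of the 70 had a ratio of 1.5 or more. The summaries of top R3 leaves below name this library where they are given without it, and the top R3 means of single genes include it.

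Together the 70 genes took a larger share of the counts the higher the leaf. At R3 the share was 1.64, 3.07, 0.671, 0.654 and 0.678% in the 5 top libraries, 0.665, 0.554, 0.419, 0.233 and 0.269% in the 5 middle libraries, and 0.0594, 0.0441, 0.120, 0.117 and 0.0791% in the 5 bottom libraries. Top and middle libraries overlapped narrowly, since middle replicate 1 exceeded top replicate 4, and all bottom libraries lay below all middle ones. At R1 the share was 1.83, 2.59, 1.47, 1.28 and 0.724% in top, 0.417, 0.863, 0.368, 0.472 and 0.294% in middle, and 0.124, 0.0616, 0.0652, 0.204 and 0.180% in bottom libraries. Again a single middle library, replicate 2, lay above the lowest top library. The means were 1.34 ± 1.05% in top R3 and 1.58 ± 0.693% in top R1 leaves, 0.428 ± 0.184% in middle R3 and 0.483 ± 0.222% in middle R1 leaves, and 0.0839 ± 0.0338% in bottom R3 and 0.127 ± 0.0650% in bottom R1 leaves (SD, n = 5 each). Without replicate 2 the top R3 mean was 0.911 ± 0.486% (SD, n = 4).

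**Figure D1:**
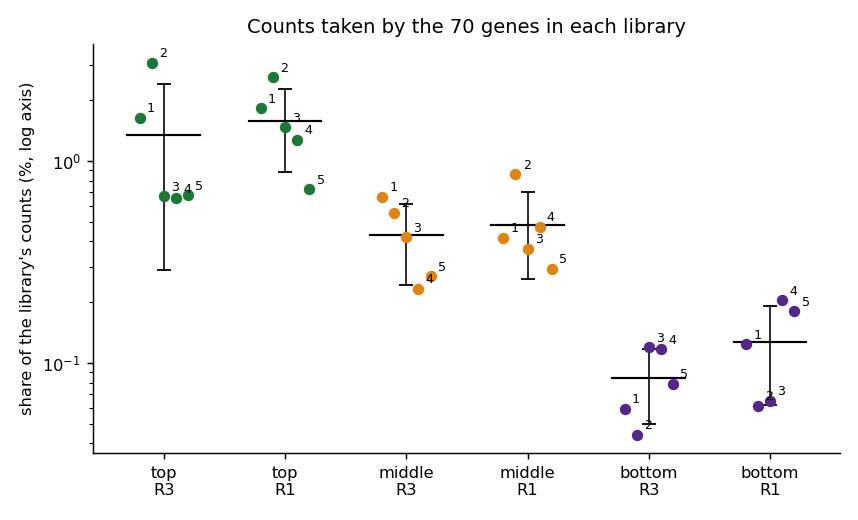
Share of each library's counts taken by the 70 genes (percent, log axis) in the 6 groups. Points are libraries with their replicate numbers, and bars are the mean ± SD of 5 libraries. Top R3 replicate 2 is the highest point at 3.07%, and bottom R3 replicate 2 the lowest at 0.0441%.

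The mean level of the genes over all libraries ran between 10.3 and 903 CPM with a median of 25.01 CPM: 27 genes averaged 10 to under 20 CPM, 20 averaged 20 to under 50, 7 averaged 50 to under 100 and 16 averaged 100 or more. The lower step tended to be the larger one. The median middle over bottom ratio was 4.52 at R3 and 4.07 at R1, and the median top over middle ratio was 2.82 at R3 and 3.32 at R1. The step between bottom and middle was the larger at both stages for 33 genes and the step between middle and top for 14, while the other 23 changed order between the stages. End to end, the median top over bottom ratio was 16.4 at R3 (range 4.57 to 508; median 12.3 without top R3 replicate 2) and 13.4 at R1 (range 4.89 to 586). It reached 10 in 48 genes at R3 and in 47 at R1.

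**Figure D2:**
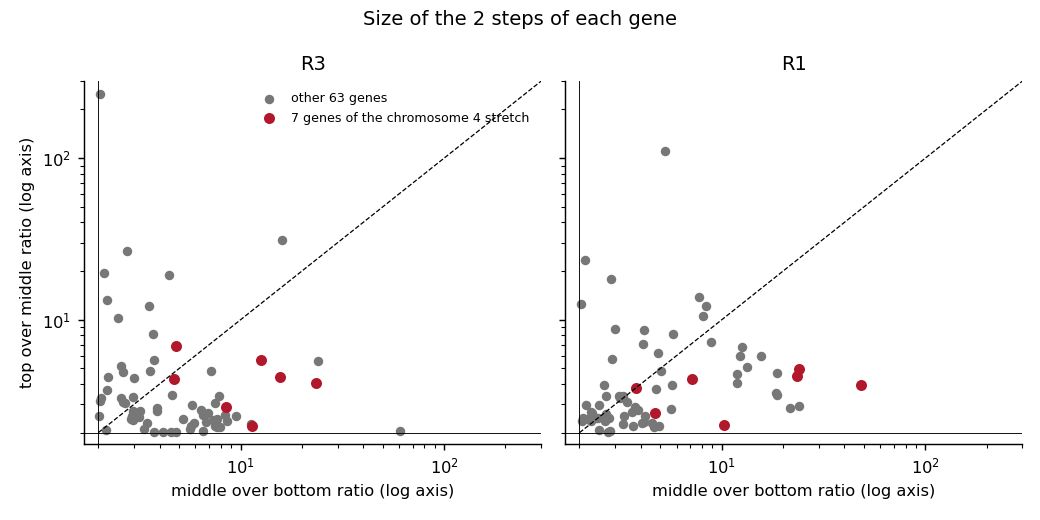
Middle over bottom ratio (x, log axis) against top over middle ratio (y, log axis) of each of the 70 genes at R3 and at R1, from group means plus 0.5 CPM. Thin lines mark the ratio of 2 that the rule required, the dashed line marks equal steps, and red points are 7 genes of 1 stretch of chromosome 4. Most points lie below 10 on both axes, and a single gene exceeds 100 on the y axis at each stage.

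All top libraries lay above all bottom libraries in 67 of the 70 genes at R3 and in 68 at R1, where 10.1% and 12.2% of the 20284 tested genes did so. Top libraries all lay above middle libraries in 13 genes at R3 (1.93% of tested genes; 14 of the 70 without top R3 replicate 2) and in 43 at R1 (8.12%). Middle libraries all lay above bottom libraries in 32 genes at R3 (5.63%) and in 42 at R1 (3.31%). Only 5 genes were free of overlap at all 4 steps (0.177% of tested genes), namely Vigun08g054400, Vigun05g058100, Vigun06g127000, Vigun08g190100 and Vigun09g158500, named because they were so few, and 10 overlapped at every step. The rule fixed the direction of all these counts, and nothing is read from them.

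The most abundant of the 70 was Vigun01g115300, on the plus strand of chromosome 1 between bases 29196393 and 29203487 with 5 exon blocks. At R3 it had 1793, 3304, 978, 901 and 957 CPM in top libraries, 963, 771, 524, 386 and 536 CPM in middle libraries, and 191, 171, 192, 238 and 204 CPM in bottom libraries. Top and middle overlapped at R3, where middle replicate 1 exceeded 2 top libraries, and bottom libraries lay below all others. At R1 it had 2073, 2995, 1971.5, 1425 and 1272 CPM in top libraries, 638, 1154, 669.8, 609 and 578 CPM in middle libraries, and 433, 231, 246, 329 and 357 CPM in bottom libraries. The R1 positions did not overlap. This gene was already well expressed in bottom leaves, and its top over bottom ratio was 7.94 at R3 and 6.09 at R1.

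Vigun01g164000, on the minus strand of chromosome 1 between bases 34562779 and 34564688 with 2 exon blocks, was the second most abundant at 624 CPM on average. It had 1368, 2608, 621, 804 and 786 CPM in top R3 libraries, 659.7, 490.4, 566, 568 and 251 CPM in middle R3 libraries, and 54.5, 64.2, 148, 373 and 229.9 CPM in bottom R3 libraries. All 4 of its steps had overlapping libraries, and its bottom R3 values spread widely, with replicate 4 above the lowest middle library. At R1 its means were 1165 ± 527 CPM for top leaves, 472 ± 165 CPM for middle leaves and 191 ± 134 CPM for bottom leaves (SD, n = 5 each).

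Vigun08g054400 combined a high level in top leaves with near absence from most bottom libraries. It is a single-exon gene model on the plus strand of chromosome 8 between bases 6586623 and 6587408. At R3 it had 1370, 2306, 622, 799 and 468 CPM in top libraries, 263, 261, 200.2, 91.9 and 178 CPM in middle libraries, and 0.394, 0.544, 17.6, 20.5 and 0.0802 CPM in bottom libraries. At R1 it had 1419, 1779.9, 1226, 957 and 574 CPM in top libraries, 291, 291, 225, 279.7 and 85.6 CPM in middle libraries, and 1.73, 0.761, 2.14, 75.5 and 6.14 CPM in bottom libraries. No position overlapped its neighbour at either stage, and within the bottom group 3 libraries of R3 were under 1 CPM while 2 were near 20. Per kilobase of exon, it averaged 1416 CPM in top R3 and 1515.5 CPM in top R1 leaves. Its smallest step was 5.07.

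Vigun06g219300 had the largest smallest step of the 70, at 8.36. This single-exon model of 336 bases lies on the plus strand of chromosome 6 between bases 32985796 and 32986131. At R3 it had 609.5, 1107, 74.1, 86.9 and 63.3 CPM in top libraries, 13.8, 10.4, 33.6, 0.223 and 2.17 CPM in middle libraries, and 0.473, 0.302, 0.277, 0.288 and 0.0802 CPM in bottom libraries. Top R3 replicates 1 and 2 stood far above the other 3 top R3 libraries. At R1 it had 1098, 728, 559, 586 and 128 CPM in top libraries, 64.7, 23.7, 18.1, 138 and 6.99 CPM in middle libraries, and 0.433, 0.989, 0.513, 25.2 and 0.689 CPM in bottom libraries. Its top over bottom ratio was 496 at R3 and 102 at R1, and the R3 ratio is understated because the 0.5 CPM added exceeds the bottom R3 mean of 0.284 CPM.

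Vigun05g058100 has 14 exon blocks on the plus strand of chromosome 5 between bases 4970601 and 4976308, and its exons overlap those of Vigun05g058200, so that some of its counts may belong to that model. At R3 it had 122, 178, 173, 229 and 191 CPM in top libraries, 81.6, 74.8, 104, 70.4 and 56.2 CPM in middle libraries, and 5.13, 7.19, 8.72, 34.9 and 7.78 CPM in bottom libraries. Its R1 means were 218 ± 87.5 CPM (top leaves), 95.2 ± 20.9 CPM (middle leaves) and 23.1 ± 22.1 CPM (bottom leaves; SD, n = 5 each), again without overlap of neighbouring positions. It was 1 of 6 genes in which top R3 replicate 2 was not the highest of its group.

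The genes nearest the limit of the rule were Vigun05g185700 and Vigun01g178600, whose smallest steps were both 2.01, between middle and top leaves at R3. Vigun05g185700 averaged 40.1 ± 17.7 CPM in top R3, 19.7 ± 5.86 CPM in middle R3 and 4.91 ± 3.11 CPM in bottom R3 leaves. Vigun01g178600 averaged 485 ± 223 CPM in top R3, 241 ± 89.6 CPM in middle R3 and 49.7 ± 24.3 CPM in bottom R3 leaves (SD, n = 5 each). Just outside lay Vigun03g226200, with a middle over bottom ratio of 1.997 at R1, and Vigun07g072000, with a top over middle ratio of 1.97 at R3. The sharpest single step belonged to Vigun11g197400, chosen after its values were seen, the 1 member on chromosome 11. It had 517, 2443, 3.19, 3.01 and 4.74 CPM in top R3 libraries and 3.40, 3.37, 2.15, 0.372 and 0.0945 CPM in middle R3 libraries. Top R3 replicates 1 and 2 thus carried nearly all of its top R3 level, and the other 3 top libraries overlapped the middle ones. At R1 it averaged 839.9 ± 765 CPM for top leaves, 7.04 ± 5.73 CPM for middle leaves and 0.933 ± 0.580 CPM for bottom leaves (SD, n = 5 each).

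**Figure D3:**
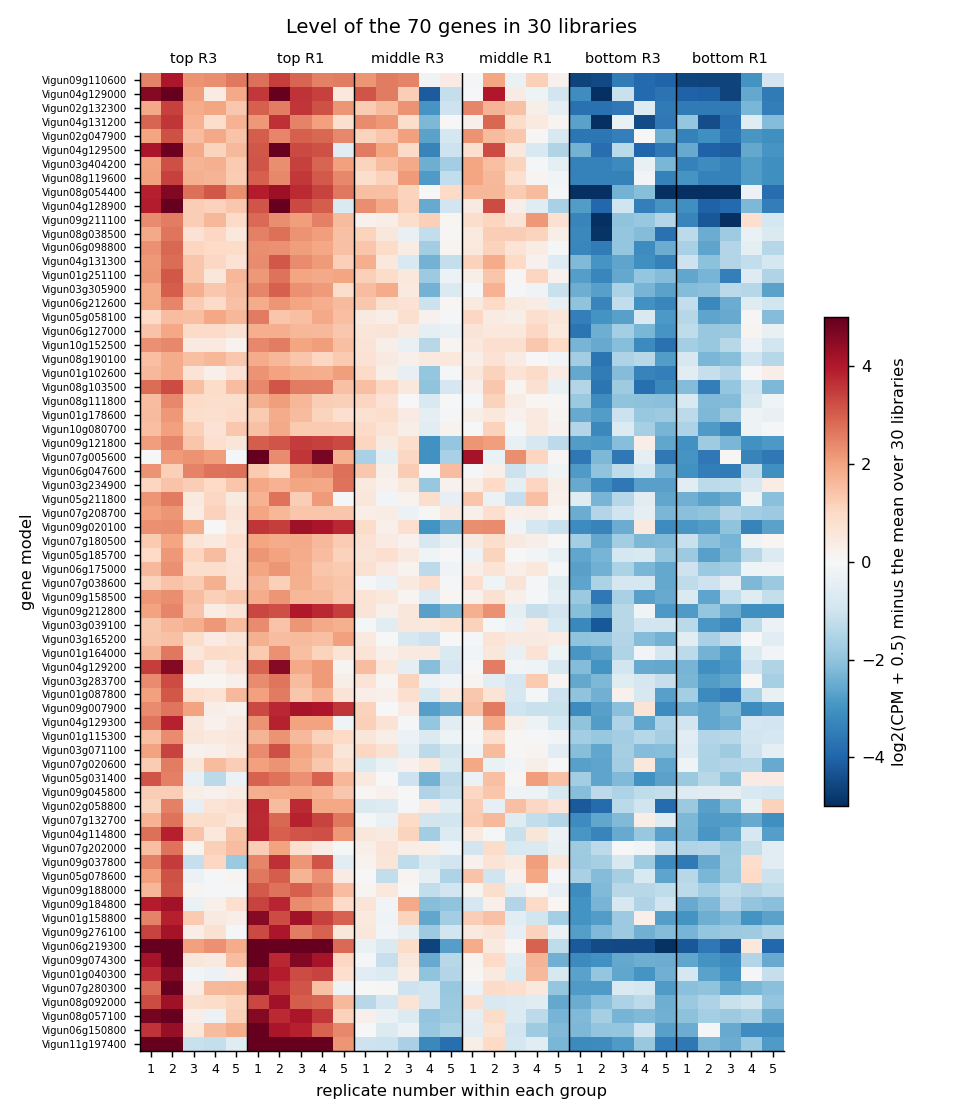
Level of each of the 70 genes (rows) in the 30 libraries (columns, by group and replicate number), as log2(CPM + 0.5) minus the gene's mean over all libraries. Red is above and blue below that mean. Top columns are mostly red and bottom columns mostly blue, and top R3 replicate 2 is the highest of its group in 64 rows.

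A stretch of chromosome 4 held 7 of the 70. The stretch was picked out after its members were seen and spans 423761 bases, 32420702 to 32844462 in the coordinates of the deposited table. The sources used here do not name the genome build. It holds 25 gene models, of which Vigun04g128900, Vigun04g129000, Vigun04g129200, Vigun04g129300, Vigun04g129500, Vigun04g131200 and Vigun04g131300 met the rule. All 3 pairs of the 70 genes with no gene model between them lie here. The closest pair elsewhere had 15 gene models and 179502 bases between its partners. The stretch itself has a gap as wide in gene models: 15 of them, over 343987 bases, lie between Vigun04g129500 and Vigun04g131200. In all, chromosome 4 held 8 of the 70 genes (11.4%) and 6.02% of the genes of the window, while chromosome 9 held 13 (18.6%) and 10.7%, and chromosome 11 held 1 (1.43%) and 7.02%. The other 18 gene models of the stretch included 9 with a mean level under 1 CPM and 5 at 10 CPM or more. Of the 18, 4 were higher at every step but none doubled at all 4.

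The first adjacent pair is on the minus strand, 10807 bases apart, and both are single-exon models. Vigun04g129000 had 1591, 2578, 277, 88.1 and 246.5 CPM in top R3, 582, 403, 156, 3.20 and 28.1 CPM in middle R3 and 7.25, 1.51, 29.9, 3.97 and 4.65 CPM in bottom R3 libraries. At R1 it had 758, 2811, 804, 696 and 95.2 CPM in top libraries, 65.8, 1069.5, 88.3, 54.9 and 34.6 CPM in middle libraries and 3.55, 3.35, 2.14, 10.6 and 5.17 CPM in bottom libraries. Its highest and lowest libraries thus differed by more than 10-fold in 5 of the 6 groups, and replicate 2 was far above its group in top and middle R1 leaves. Vigun04g128900 followed it, with 823, 2347, 128, 120.1 and 137 CPM in top R3, 272, 199, 121, 8.99 and 27.1 CPM in middle R3 and 7.25, 3.08, 26.4, 4.55 and 6.58 CPM in bottom R3 libraries. At R1 its means were 703 ± 769 CPM for top leaves, 142 ± 211 CPM for middle leaves and 5.43 ± 3.28 CPM for bottom leaves (SD, n = 5 each).

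The second adjacent pair is on the plus strand, 5065 bases apart. Vigun04g129300 had 413, 929, 92.9, 74.4 and 87.1 CPM in top R3, 145, 104, 60.8, 16.3 and 42.9 CPM in middle R3 and 15.1, 8.64, 21.5, 10.2 and 21.1 CPM in bottom R3 libraries. Vigun04g129500 had 600.2, 1063.5, 131, 77.1 and 108 CPM in top R3, 215, 140.3, 67.8, 2.97 and 16.8 CPM in middle R3 and 6.39, 2.05, 13.3, 1.78 and 2.49 CPM in bottom R3 libraries. In both, middle replicates 1 and 2 exceeded the 3 lowest top libraries. At R1 the top, middle and bottom means were 359 ± 333, 94.4 ± 81.2 and 24.4 ± 12.5 CPM for Vigun04g129300 (SD, n = 5 each). For Vigun04g129500 they were 439 ± 443, 97.5 ± 138 and 3.70 ± 2.02 CPM (SD, n = 5 each).

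Per kilobase of exon, the top R3 means of the 7 genes ran between 21.0 CPM for Vigun04g131300 and 982 CPM for Vigun04g131200, with Vigun04g129000 close below at 973 CPM. Together they took 22.3 ± 8.48% of the counts of the 70 genes in top R3 and 20.6 ± 10.9% in top R1 leaves, 19.99 ± 13.2% in middle R3 and 19.0 ± 13.8% in middle R1 leaves, and 9.27 ± 7.60% in bottom R3 and 6.65 ± 2.28% in bottom R1 leaves (SD, n = 5 each). Their deviations from the group means, on the log2 scale, were correlated over the 30 libraries with a median r of 0.899 over 21 pairs (range 0.764 to 0.977). The points share library and depth, and whether the 7 models are near-identical copies between which reads could be split was not analysed here. Without top R3 replicate 2, 5 of the 7 met the rule.

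**Figure D4:**
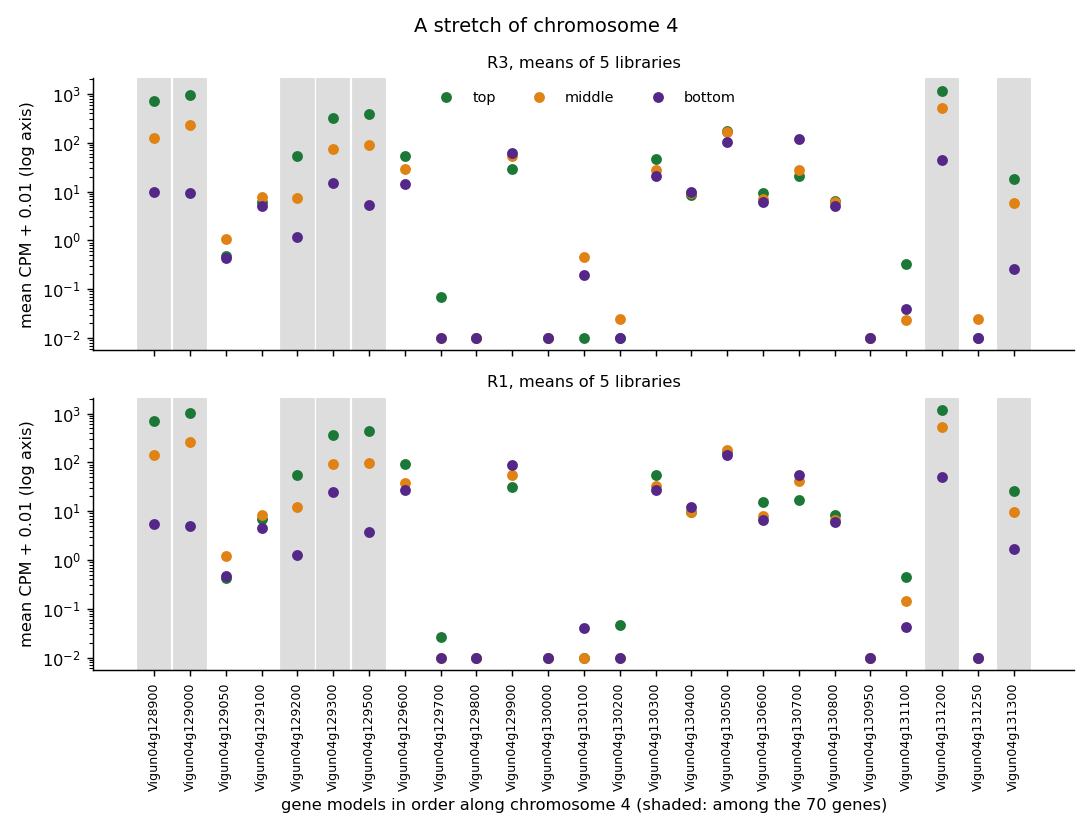
Mean CPM plus 0.01 (log axis) of the 25 gene models of the chromosome 4 stretch, in order along the chromosome, in top, middle and bottom leaves at R3 (upper panel) and R1 (lower panel). Points are means of 5 libraries and the 7 shaded models are among the 70 genes. In each shaded model top lies above middle and middle above bottom, while several models between them sit at 0.01, that is, at no count.

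The 70 genes also differed in structure, which the rule did not use. A single exon block was listed for 21 of them (30.0%), against 7.67% of the 12173 genes of the window. The median number of exon blocks was 3 in the 70 genes and 6 in the window, and the median exon length was 1553.5 and 2057 bases. Of the 7 genes of the chromosome 4 stretch, 6 had a single exon block, and so had 15 of the 63 others (23.8%). Without top R3 replicate 2, 17 of the 39 genes left (43.6%) had one. Exons of 2 of the 70 overlapped another gene model (2.86%, against 3.90% of the window), and 40 lay on the plus strand.

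Libraries of the same group differed more in these genes than in most. The median coefficient of variation (SD over mean) of the 70 genes was 67.1% in top R3 and 36.4% in top R1 leaves, where genes of the window had 23.5% and 17.5%. It was 61.9% in middle R3, 64.4% in middle R1, 70.2% in bottom R3 and 68.7% in bottom R1 leaves, where the window had 19.2%, 16.1%, 19.995% and 19.97%. The window matches the 70 genes in mean over all libraries, not in level within a group. Some of the 70 were near the floor in bottom leaves, where counting error alone widens the spread (Vigun03g404200 averaged 0.0869 CPM in bottom R1). The deviations ran in parallel: 61 of the 70 genes had a correlation of 0.5 or more with the mean deviation of the other 69 (median r 0.729 over 30 libraries), and 59 did so without top R3 replicate 2. The points again share library and depth, and the rule, which asks for a high top mean, used the same libraries. This correlation was not computed for other genes of the window, so it is not shown to be particular to the 70. Single libraries were extremes for many window genes too: top R1 replicate 2 was the lowest for 50.8%, and middle R3 replicate 4 the highest for 49.1%. Besides top R3 replicate 2, middle R3 replicate 4 was the lowest of its group for 54 genes (77.1%, against 18.8% of the window), and top R1 replicate 5 for 53 (75.7%, against 23.5%). Middle R1 replicate 2 was the highest of its group for 41 genes (58.6%, against 10.8%).

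Most like the mean of the others were Vigun04g129200 (r 0.887), Vigun04g128900 (r 0.882) and Vigun04g129000 (r 0.875), all on the chromosome 4 stretch. For each of them the mean of the others includes the rest of that stretch, so their rank is partly built in. Pairs within the stretch had a median r of 0.899, against 0.495 over all 2415 pairs of the 70. At the other end, chosen after their values were seen, Vigun07g038600 had an r of 0.0176, Vigun06g047600 an r of 0.199 and Vigun07g005600 an r of 0.200. In Vigun07g038600 top R3 replicate 2 did not stand out: it had 22.4, 27.95, 25.1, 35.6 and 17.3 CPM in top R3, 9.59, 7.999, 14.2, 18.2 and 9.45 CPM in middle R3 and 1.18, 3.02, 5.33, 5.18 and 1.28 CPM in bottom R3 libraries. Vigun06g047600 was lowest in the top R3 library where most of the 70 were highest: it had 48.5, 23.2, 57.4, 67.4 and 69.5 CPM in top R3 libraries.

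R3 and R1 were compared at each position, a contrast that the rule did not use, by edgeR's quasi-likelihood test with Benjamini-Hochberg adjustment over 20284 genes. The same libraries chose the genes through their group means within each stage. The shares over all tested genes beside the counts are therefore not from genes chosen alike. In top leaves none of the 70 genes passed in either direction, where 0.799% of tested genes were higher and 0.759% lower at R3. DESeq2 called 0 of the 70, while over the 21174 genes it tested 531 were higher and 327 lower. At an unadjusted p under 0.05 in the edgeR fit, 5 of the 70 were lower and none was higher. The share of all tested genes at that threshold was not computed, so nothing is read from this count. The fitted log2 fold change was below 0 in 52 of the 70, with a median of -0.23 (all tested genes, -0.00088). This median rested on single libraries: it was -0.815 without top R3 replicate 2 and -0.0527 without top R1 replicate 2. Scaling by column totals, which moved the median of all genes to -0.18, left 0 of the 70 called while the split over all genes became 104 higher and 755 lower, against 162 and 154. Leaving out top R3 replicate 2 brought 1 gene past the threshold, Vigun09g188000 (named after its values were seen), at a log2 fold change of -1.90 (adjusted p 0.0146). The calls rose over all genes as well: of the 20464 tested in that fit, 733 were higher and 790 lower. In Vigun09g188000 top R3 libraries had 36.8, 103, 12.2, 10.4 and 10.4 CPM, and top R1 libraries had 96.7, 77.1, 91.5, 67.5 and 33.3 CPM.

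In middle leaves 0 of the 70 genes passed as well, where 1.06% of tested genes were higher and 1.42% lower at R3. DESeq2 called 0 of the 70 here too, against 709 higher and 694 lower among its 21174 tested genes. At an unadjusted p under 0.05 in the edgeR fit, 1 gene was higher and 3 were lower. Again no share of all tested genes at that threshold was computed, and nothing is read from these counts. The fitted change was below 0 in 53 of the 70, with a median of -0.29 (all tested genes, -0.01), which was -0.541 without middle R3 replicate 1 and -0.0223 without middle R1 replicate 2. Libraries of R1 all lay above those of R3 in 7 of the 70 genes in top leaves (4.67% of tested genes), in 0 in middle leaves (3.87%) and in 5 in bottom leaves (4.85%). The reverse occurred in 0 of the 70 at each position (0.449%, 1.40% and 2.54% of tested genes in top, middle and bottom leaves). These overlap counts used CPM by column totals, not the TMM scaling of the test. In top leaves column totals gave 104 higher and 755 lower calls over all genes.

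**Figure D5:**
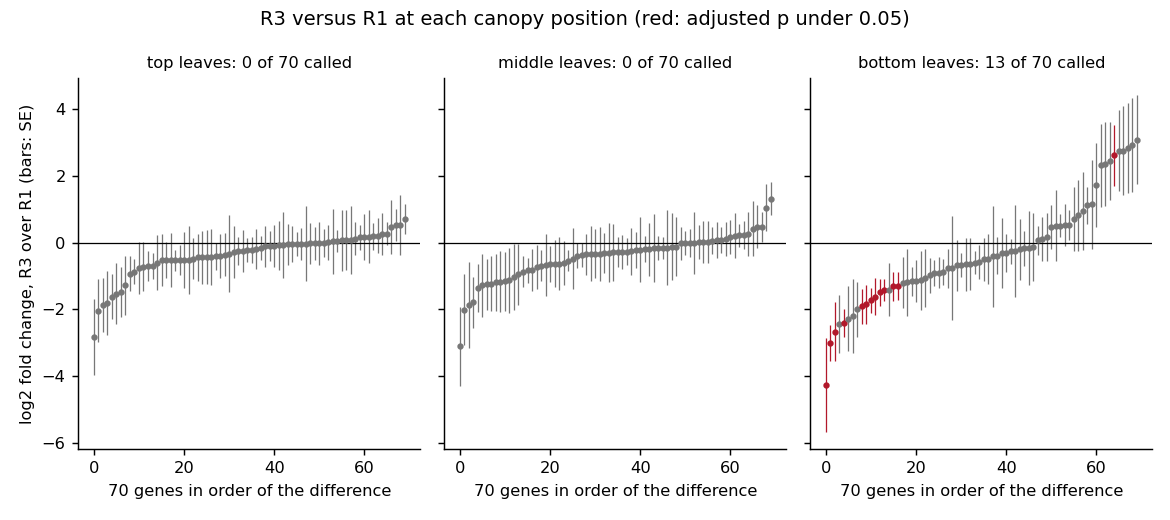
Log2 fold change of R3 over R1 of the 70 genes, in order of size, in top, middle and bottom leaves. Points are edgeR estimates with their standard errors, and red points have an adjusted p under 0.05. There are 0 red points in top and middle leaves and 13 in bottom leaves, 12 of them below 0.

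In bottom leaves 13 of the 70 genes passed (18.6%), where 16.2% of tested genes and 19.5% of the genes of the window did: the share called was near the background. Of these, 12 were lower at R3 (17.1%, against 8.53% of tested genes and 10.6% of the window) and 1 was higher (1.43%, against 7.71% and 8.93%). The median log2 fold change of the 70 was -0.54 (all tested genes, -0.0018), and it was -0.865 without bottom R3 replicate 4 and -0.13 without bottom R1 replicate 4. Of the 13 calls, 4 held when any 1 of the 30 libraries was left out: Vigun01g102600, Vigun03g165200, Vigun03g234900 and Vigun06g127000. The other 9 were lost in at least 1 such fit. The count of calls fell to 5 without bottom R1 replicate 4 and to 6 without bottom R3 replicate 5. It fell to 7 without bottom R1 replicate 1 or 5 or bottom R3 replicate 2 or 4. Over all tested genes the calls moved too, from 1564 higher and 1731 lower. They were 800 and 1052 without bottom R1 replicate 4, and 1068 and 1095 without bottom R3 replicate 5. Without bottom R1 replicate 1 they were 701 and 1100, and without bottom R1 replicate 5 they were 1378 and 1589. Without bottom R3 replicate 2 they rose to 2053 and 1949, and without bottom R3 replicate 4 they were 759 and 1054.

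Vigun01g102600 is a model of 12 exon blocks on the minus strand of chromosome 1 between bases 27085475 and 27089676. It had 1.26, 0.423, 1.80, 0.518 and 0.481 CPM in bottom R3 libraries, against 6.67, 4.11, 3.25, 9.90 and 12.5 CPM in bottom R1 libraries. The stages did not overlap, and the log2 fold change was -3.01 (SE 0.53, adjusted p 0.000911). In top leaves the same gene had a log2 fold change of -0.70 (SE 0.45, adjusted p 0.486) and in middle leaves one of -0.69 (SE 0.46, adjusted p 0.408). Whether the change differed between positions was not tested.

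Vigun04g131300, a single-exon model at the end of the chromosome 4 stretch (bases 32843599 to 32844462, plus strand), had 0.631, 0.181, 0.346, 0.115 and 0 CPM in bottom R3 libraries. The library with no count allows up to 0.241 CPM (3 counts, counting error only). Bottom R1 libraries had 2.08, 0.761, 1.37, 1.704 and 2.35 CPM, all above those of R3, and the log2 fold change was -2.67 (SE 0.88, adjusted p 0.0389). The call was lost without any 1 of 7 bottom libraries, with adjusted p-values up to 0.101. These levels are close to what a few counts give, so the size of the change is imprecise.

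The remaining lower calls included Vigun03g234900, with 4.60 ± 1.36 CPM in bottom R3 and 24.6 ± 13.7 CPM in bottom R1 leaves (SD, n = 5 each) and a log2 fold change of -2.41 (adjusted p 0.000656). Vigun06g127000 had 10.4 ± 5.15 CPM in bottom R3 and 33.8 ± 21.8 CPM in bottom R1 leaves, and Vigun03g165200 had 4.29 ± 1.17 CPM in bottom R3 and 11.4 ± 4.95 CPM in bottom R1 leaves (SD, n = 5 each). These 3 genes were chosen after their values were seen, because their calls held in every fit that left out 1 library. Vigun06g219300 had the largest fitted change, -4.27 (SE 1.41, adjusted p 0.0395), but it rested on bottom R1 replicate 4: without it the log2 fold change was -1.14 (adjusted p 0.632).

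The 1 gene called higher at R3 in bottom leaves was Vigun07g132700, named after its values were seen, on chromosome 7 between bases 24247841 and 24249112. It had 0.0789, 0.363, 0.623, 5.87 and 2.89 CPM in bottom R3 libraries, against 0.606, 0.228, 0.256, 0.406 and 0.115 CPM in bottom R1 libraries, and the stages overlapped. Its log2 fold change was 2.62 (SE 0.90, adjusted p 0.0472), and the call was lost in 19 of the 30 fits that left out 1 library. The log2 fold change was above 2 in 9 of the 70 genes in bottom leaves, and in all 9 bottom R3 replicate 4 was the highest of the 10 bottom libraries. In top leaves the fitted change of Vigun07g132700 was below 0 and did not pass the test, with 15.2 ± 10.7 CPM at R3 and 52.6 ± 18.1 CPM at R1 (SD, n = 5 each; log2 fold change -1.62, SE 0.69, adjusted p 0.244).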

How the data were processed

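PolyA RNA of 30 cowpea leaf libraries was analysed from the table of raw counts per gene model that the authors deposited. Tools named per the submitters' processing notes are HISAT2, featureCounts and DESeq2, with no version or role. Not given in the sources used here are the genome build, the strand setting and the handling of shared reads. Counts of overlapping or near-identical models are therefore uncertain. A deposited table of normalized counts was not used. All value columns were matched to a sample by label (0 left over), and the titles gave groups and replicate numbers. Totals were 10.5 to 17.4 M counts. Intervals and floors (3 counts) cover counting error only.

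CPM used column totals. Steps were ratios of group means plus 0.5 CPM. Exon blocks are listed exons merged where they overlap or touch, and the window is the rule's range of mean CPM on chromosomes 1 to 11. Stage was tested in R 4.3.3 with edgeR 4.0.16 (TMM, filterByExpr by group, trended dispersion, quasi-likelihood, 6 groups in 1 fit, 20284 genes); a gene was called at an adjusted p under 0.05. The standard error is the log2 fold change over the square root of F. Deviations are log2 CPM (TMM, prior count 2) minus the group mean. The fitting code was tested on simulated data. Alternatives were DESeq2 1.42.0, its size factors, column totals, no filter, fits of 2 groups, a replicate block, leaving out each library, and a threshold of 2-fold, and for the rule other scalings, added values, medians, step sizes and limits.

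The genes, the rule and the lists were chosen with earlier results of these data known. Named were at most 2 genes each with the highest mean CPM, the largest smallest step, the highest mean among those free of overlap at all steps, the largest called stage change in each direction among genes whose stages did not overlap, adjacent gene models (2 pairs), and the smallest step just inside and just outside the rule. No identifier matched the RefSeq table used (ASM411807v2), so gene lists and cell type markers were not analysed here. The steps between positions were used by the rule and got no test.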

Additional observations from a re-analysis of the deposited data

Results flagged for a closer look

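In 84 groups of 5 libraries (the share of counts and the 13 genes named by the rule, in 6 groups each), 16 single libraries lay far from the other 4 of their group. The limit was a gap over range above 0.71 (Dixon), whose nominal 5% holds for independent, normally distributed values. Values here were not on a log scale and many of these genes deviated together, so no excess over chance is read from the 16.

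In top R1 leaves the library that lay apart was replicate 2, for the 4 paired genes of chromosome 4. It had 2031 CPM for Vigun04g128900 (others 32.0 to 530.4), 2811 CPM for Vigun04g129000 (others 95.2 to 804), 929 CPM for Vigun04g129300 (others 54.9 to 303) and 1195 CPM for Vigun04g129500 (others 23.7 to 347). In middle R1 leaves replicate 2 stood out again, with 516 CPM for Vigun04g128900 (others 17.2 to 73.1), 1069.5 CPM for Vigun04g129000 (others 34.6 to 88.3), 237 CPM for Vigun04g129300 (others 34.4 to 78.1) and 341 CPM for Vigun04g129500 (others 11.9 to 62.7). The same library had 1154 CPM for Vigun01g115300 (others 578 to 669.8) and 32.9 CPM for Vigun05g185700 (others 11.5 to 14.6).

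In bottom R3 leaves replicate 3 had 26.4 CPM for Vigun04g128900 (others 3.08 to 7.25) and 29.9 CPM for Vigun04g129000 (others 1.51 to 7.25), and replicate 4 had 34.9 CPM for Vigun05g058100 (others 5.13 to 8.72). In bottom R1 leaves replicate 4 had 25.2 CPM for Vigun06g219300 (others 0.433 to 0.989), 75.5 CPM for Vigun08g054400 (others 0.761 to 6.14) and 61.6 CPM for Vigun05g058100 (others 9.21 to 21.8). All 16 were high values. What sets these libraries apart was not tested.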

How the results depend on the processing

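The number of genes under the rule was 36 with medians of libraries in place of means, against 70, and only 28 of the 36 were among the 70. It was 202 at 1.5-fold and 12 at 3-fold steps, and 139 without limits on mean CPM. TMM scaling gave 84 genes and DESeq2 size factors 88, with 68 and 69 of the 70 among them. Adding 1 CPM to each group mean gave 61, and adding nothing gave 83. Leaving out 1 library gave 39 to 75 genes, the lowest without top R3 replicate 2, and 24 of the 70 met the rule in all 30 such settings. R3 versus R1 in top leaves called 0 or 1 of the 70 when 1 library was left out, and 0 under the other alternatives; middle leaves gave 0 throughout. In bottom leaves the count of 13 was 4 in a fit of the 2 groups alone, whose filter kept only 50 of the 70. It was 19 with DESeq2, 14 with column totals, 11 without the filter, and 5 to 15 when 1 library was left out. Over all tested genes, 1564 were higher and 1731 lower in the main fit, and 518 and 671 in the fit of the 2 groups. They were 2171 and 2122 with DESeq2, 986 and 1675 with column totals, and 1352 and 1442 without the filter. Vigun07g132700 was no longer called without the filter (adjusted p 0.0575). Directions were followed through these alternatives for Vigun01g102600, Vigun04g131300 and Vigun07g132700 in bottom leaves, and none of these reversed. With the replicate number as a block, the counts were 0, 0 and 13 in top, middle and bottom leaves. Between the stages, same-numbered libraries deviated together with correlations of 0.012 to 0.533 in top, -0.139 to 0.325 in middle and -0.456 to 0.176 in bottom leaves, so the numbers were not taken to pair the samples of the stage comparisons; 2, 1 and 0 of the 5 R3 libraries of those positions correlated best with their own number. Between positions, for which no test is given, the correlations were 0.185 to 0.524 for middle versus bottom at R1, where all 5 exceeded 0.1. They were -0.0188 to 0.468 for top versus middle at R1. In each, 4 of 5 libraries correlated best with their own number. At R3, 2 of 5 did so for middle versus bottom and 2 of 5 for top versus middle. For top versus bottom it was 1 of 5 at R1 and 1 of 5 at R3. Depth limits low levels: at 3 counts the floor of a bottom R3 library was up to 0.241 CPM.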
